A study of Sus scrofa with 8 samples.

Results

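The genes described here carry fatty acids into muscle fibres and burn them in mitochondria. The list held 10 genes of uptake, the carnitine shuttle, beta-oxidation and uncoupling, and members were all probe sets that the platform annotation assigns to 1 of these symbols. Of the 10 genes, 9 had a probe set. No probe set carried the symbol of the fatty acid translocase CD36, so it has no value here. The 9 genes were measured by 14 probe sets, out of 23935 on the array after reporter probe sets were left out, and a gene with several is led by the one with the highest mean log2 level over the 8 arrays. All 14 lay above the filter on low levels and were tested with the other probe sets, 14361 in all.

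Muscle takes up fatty acids that lipoprotein lipase releases from triglycerides in the capillaries, and binding proteins carry them through the cytosol. Long-chain fatty acids enter the mitochondrion only as carnitine esters, and the enzyme that makes these esters at the outer membrane is the controlled step of the route. Inside, acyl-CoA dehydrogenases of graded chain length and the trifunctional protein shorten the chain by rounds of beta-oxidation. Slow oxidative fibres rely on this pathway more than fast glycolytic fibres do.

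Biceps femoris, a hind-limb muscle, was taken on day 5 from female domestic piglets (Sus scrofa) that were sedated with isoflurane and ventilated mechanically, 1 array per sample. The 4 corticosteroid arrays came from piglets that also received bolus hydrocortisone, with a protocol text that counts 8 piglets averaging 26.4 kg. The 4 control arrays came from piglets described by their source label as given sedation and ventilation, with a protocol text that counts 4 piglets averaging 25.5 kg. That text also names an infusion of Escherichia coli endotoxin at 36 µg/kg/h for 1 h, which the text of the corticosteroid samples does not. Both groups received a glucose infusion, morphine and ketamine as needed, and streptomycin with penicillin, and both carry the label acute quadriplegic myopathy. The design text adds a pancuronium infusion without saying which animals had it. Corticosteroid, endotoxin and any processing batch that follows the groups cannot be told apart here. Whether each array stands for a separate animal is not said in the labels, so p-values measure only the spread between these samples, which may be technical. The comparison asks how the corticosteroid changes the muscle transcriptome in this intensive care model.

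The corticosteroid columns of the deposited table were first re-assigned to probe IDs sorted with full stops ignored, because their values did not match the row order of the control columns. The order is inferred from the values and is stated by no label. This moved 6 of the 14 member probe sets, which are those of ACADM, HADHA and UCP3 and 2 of the 3 of HADHB, and 39.7% of all probe sets tested. Among the members, HADHB gave a check within the corticosteroid group, since 1 of its probe sets lay in a row that did not move. That probe set exceeded the second HADHB probe set by 0.11 to 0.20 log2 units on the corticosteroid arrays after re-assignment, and by 0.06 to 0.34 on the control arrays. It exceeded the third by 0.60 to 0.96 on the corticosteroid arrays and by 0.84 to 1.11 on the control arrays. With the rows as deposited the second stood 0.60 to 0.96 and the third 6.15 to 6.99 log2 units below it on the corticosteroid arrays. The second probe set thus told the 2 orders apart less clearly than the third. The other members with a row that did not move, namely FABP3, LPL, CPT1B, ACADL and ACADVL, have the same log2 levels in either order.

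The muscle label fitted its markers. Of 8 skeletal muscle markers 6 had a probe set and all 6 lay above the filter, with creatine kinase (CKM) at a log2 level of 14.03 ± 0.03 on corticosteroid arrays and 13.93 ± 0.06 on control arrays (SD, n = 4 each). Array medians ran from 5.87 to 5.97 on the log2 scale. Control replicate 2 stood apart, with a median correlation across probe sets of 0.894 with the other arrays, against 0.923 to 0.952 for each of the others. Its 7 macrophage markers had a summed linear level of 3395, against 1138 to 1647 on the other control arrays and 799 to 1438 on the corticosteroid arrays. Of the 9 member genes, 4 had their lowest level of all arrays there (CPT1B, ACADVL, HADHA and UCP3) and 1, FABP3, its highest. Differences of the members without this array are given beside the main values.

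No member passed the test. Adjusted p-values from limma fell under 0.05 for 0 of 14361 probe sets (0%), and the lowest among the members was 0.479. Unadjusted p-values did so for 1363 probe sets (9.49%, of which 4.71% lower and 4.78% higher with corticosteroid). Counted by lead probe set, they did so for 496 of 5406 genes (9.17%, of which 3.9% lower and 5.27% higher). Among the members it was 1 of 9 genes (11.1%), a share near that background. This gene was FABP3, with the lower level under corticosteroid. The 2 groups overlapped for all 14 member probe sets, whereas 5.56% of all probe sets and 5.42% of genes had groups that did not overlap. Uptake genes had lower means with corticosteroid, with a median log2 difference of -0.74 over 2 genes. That median was -0.48 without control replicate 2, and -0.36 without both this array and corticosteroid replicate 4. The carnitine shuttle gene CPT1B had a higher mean (0.24, and 0.12 without control replicate 2), and beta-oxidation genes had a median difference of 0.04 over 5 genes, 4 of them with a higher mean and 1 with a lower (0.06 without control replicate 2). Over all 5406 genes the median log2 difference was 0.03, and 54.0% had a higher mean. These summaries describe small sets, and the difference between the steps was not tested.

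**Figure D1:**
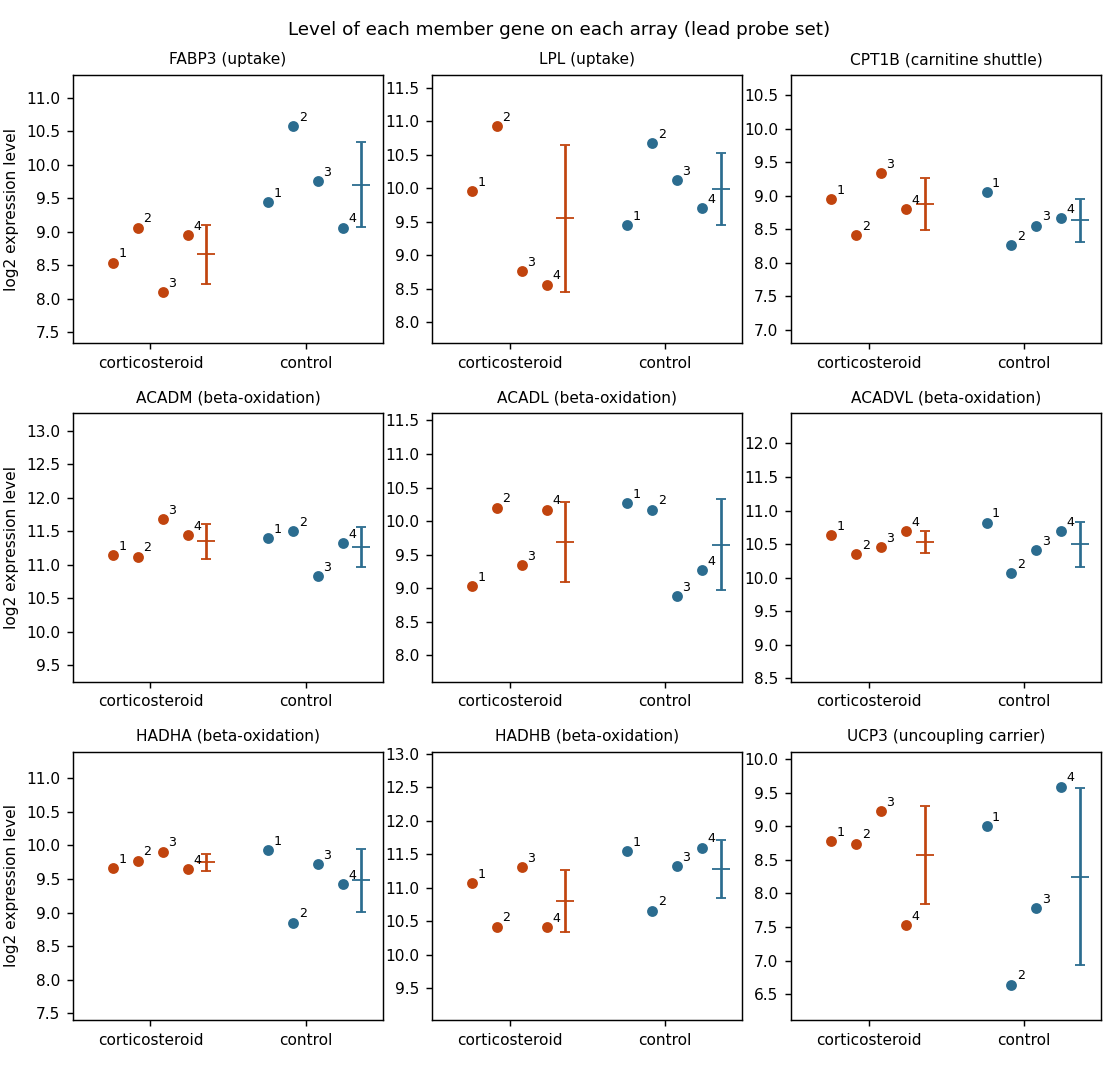
Log2 expression level of each member gene on each array (lead probe set), corticosteroid arrays left and control arrays right, with replicate numbers beside the points and the group mean ± SD (n = 4 each). Every vertical axis spans the same number of log2 units; FABP3 shows 3 corticosteroid arrays below all control arrays, and UCP3 the widest scatter within groups.

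FABP3 is the heart-type fatty acid binding protein, the main cytosolic carrier of fatty acids in oxidative muscle. Its log2 level was 8.54, 9.06, 8.10 and 8.95 on corticosteroid arrays 1 to 4, and 9.44, 10.57, 9.75 and 9.06 on control arrays 1 to 4. Of the corticosteroid arrays 3 lay below every control array, and corticosteroid replicate 2 lay just above control replicate 4, so the groups overlapped. The means were 8.67 ± 0.44 with corticosteroid and 9.70 ± 0.64 in controls (SD, n = 4 each), a log2 difference of -1.04 (SE 0.34, 95% interval -1.80 to -0.28). On the linear scale this is 2.06-fold lower. In limma the unadjusted p was 0.0127 and the adjusted p 0.479, and the exact two-sided permutation p was 0.0571, where 4 arrays against 4 allow no p below 0.0286. The difference was -0.75 without control replicate 2. In whole muscle, fewer fibres of a type and less RNA per fibre cannot be told apart.

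Slow-fibre markers also had lower means with corticosteroid. All 8 slow-fibre markers had a probe set above the filter and a lower mean, with a median log2 difference of -1.03, and 6 of them had an unadjusted p under 0.05 in limma (0 an adjusted p under 0.05), where 9.17% of all genes did and 3.9% were lower. Of the 6 measured skeletal muscle markers, 4 had higher and 2 lower means. The 2 troponins of fast fibres among them had an unadjusted p under 0.05 in limma, both with higher means. Of all genes 5.27% had such a p and a higher mean. TNNT3 differed by 0.66 (SE 0.21, limma adjusted p = 0.479) and TNNC2 by 0.43 (SE 0.17, limma adjusted p = 0.495). Both were lowest on control replicate 2, at 12.58 for TNNT3 and 13.25 for TNNC2. MYLPF (0.13), CKM (0.10), DES (-0.08) and TTN (-0.09) had an unadjusted p of 0.05 or more in limma. The summed linear level of the 8 slow-fibre markers was 11521 to 22275 on corticosteroid arrays and 20054 to 48744 on control arrays. The mean of the 8 markers, each centred over the arrays, was -0.53 ± 0.32 log2 units with corticosteroid and 0.53 ± 0.62 in controls (SD, n = 4 each). Control replicates 2 and 3, which had the highest FABP3 levels, also had the highest marker means (0.98 and 1.08). Corticosteroid replicate 3 did not follow this order, with the lowest FABP3 level and the highest marker mean of its group (-0.11). The part of the slow-fibre markers in the FABP3 difference was not tested.

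LPL, lipoprotein lipase, releases fatty acids from circulating triglycerides at the capillary wall and is made by muscle fibres and by adipocytes. Its lead probe set stood at 9.95, 10.92, 8.76 and 8.56 on corticosteroid arrays 1 to 4, and at 9.45, 10.67, 10.12 and 9.70 on control arrays 1 to 4. The corticosteroid arrays spanned both the highest and the 2 lowest levels. The mean log2 level was 9.55 ± 1.10 with corticosteroid and 9.99 ± 0.54 in controls (SD, n = 4 each), a difference of -0.44 (SE 0.51, 95% interval -1.57 to 0.70, limma adjusted p = 0.771). The second probe set gave a log2 difference of -0.52 (SE 0.56). It was highest on control replicate 2 (10.52) and lowest on corticosteroid replicate 3 (7.81). Without control replicate 2 the difference of the lead probe set was -0.21, without corticosteroid replicate 4 it was -0.11, and without corticosteroid replicate 2 it was -0.90.

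Adipocyte markers varied across the arrays as well. Of 9 such markers 6 had a probe set, all above the filter, and their summed linear level was 1854 to 9172 on corticosteroid arrays and 2373 to 8235 on control arrays. The highest sums were those of corticosteroid replicate 2 (9172) and control replicate 2 (8235), the arrays with the highest LPL levels. Corticosteroid replicate 4 had the lowest sum and the lowest level of the lead LPL probe set. The second LPL probe set was lowest on corticosteroid replicate 3 (7.81). FABP4, the adipocyte fatty acid binding protein, makes up most of these sums and also stands in the list of other uptake genes. With each marker centred and weighted equally, the mean was 0.95 log2 units on corticosteroid replicate 2 and -0.24 on control replicate 2, where 0 is the average of the 8 arrays. The hormone adiponectin (ADIPOQ) stood at 9.33, 10.75, 6.78 and 6.35 log2 units on corticosteroid arrays 1 to 4 and at 6.05, 8.07, 9.57 and 9.46 on control arrays 1 to 4, a spread of over 4 log2 units within the corticosteroid group. Endothelial markers had similar sums in both groups, 2240 to 2870 on corticosteroid arrays and 2259 to 2648 on control arrays. The part of fat cells in the LPL levels was not tested.

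**Figure D2:**
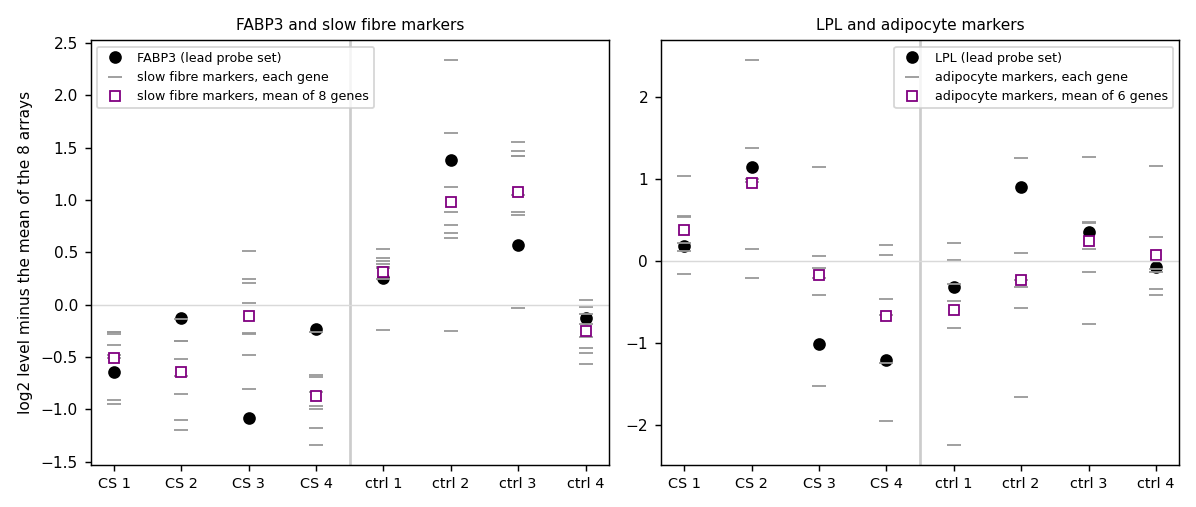
Log2 level minus the mean of the 8 arrays for FABP3 with slow-fibre markers (left) and LPL with adipocyte markers (right), on corticosteroid (CS) arrays and then control (ctrl) arrays. Black points are the member gene (lead probe set), grey dashes single marker genes and open squares their mean. The lead LPL probe set and the adipocyte mean were both highest on corticosteroid replicate 2 and lowest on corticosteroid replicate 4. The second LPL probe set, not shown, was highest on control replicate 2 (10.52) and lowest on corticosteroid replicate 3 (7.81).

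CPT1B is the muscle form of carnitine palmitoyltransferase 1, the malonyl-CoA-sensitive enzyme that commits long-chain fatty acids to the mitochondrion. Its log2 level was 8.95, 8.41, 9.33 and 8.80 on corticosteroid arrays 1 to 4, and 9.05, 8.26, 8.55 and 8.66 on control arrays 1 to 4. The groups overlapped over most of their range. The means were 8.87 ± 0.38 with corticosteroid and 8.63 ± 0.33 in controls (SD, n = 4 each), a difference of 0.24 (SE 0.25, 95% interval -0.31 to 0.80, limma adjusted p = 0.732). The interval allows a level from 0.807 to 1.74 times that of controls. Leaving out control replicate 2 gave 0.12, and leaving out corticosteroid replicate 3 gave 0.09.

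The 3 acyl-CoA dehydrogenases catalyse the first step of each round of beta-oxidation, for medium (ACADM), long (ACADL) and very long chains (ACADVL). All 3 had log2 differences near 0. ACADM stood at 11.14, 11.12, 11.68 and 11.44 on corticosteroid arrays 1 to 4 and at 11.39, 11.50, 10.83 and 11.32 on control arrays 1 to 4. Its difference was 0.09 (SE 0.20, 95% interval -0.35 to 0.52) and 0.16 without control replicate 2, in a row that the re-assignment moved. ACADVL stood at 10.63, 10.35, 10.45 and 10.69 on corticosteroid arrays and at 10.82, 10.07, 10.41 and 10.69 on control arrays, in the order of their numbers. Its difference was 0.04 (SE 0.19, 95% interval -0.40 to 0.47), and -0.04 (SE 0.24) for its second probe set. Without control replicate 2 the lead difference was -0.11. ACADM and ACADVL had the narrowest intervals among the member genes. A change of 1 log2 unit lay outside the 95% interval for both, and also for CPT1B, HADHA and, by less, ACADL.

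ACADL was less settled. Its log2 level was 9.03, 10.20, 9.34 and 10.17 on corticosteroid arrays 1 to 4, and 10.27, 10.17, 8.88 and 9.27 on control arrays 1 to 4. Each group thus held 2 arrays above 10 and 2 at or below 9.34. The difference was 0.04 (SE 0.39, 95% interval -0.83 to 0.90), which leaves room for a difference of nearly 1 log2 unit either way, and was 0.21 without control replicate 2. Adjusted p-values in limma were 0.896 for ACADM, 0.982 for ACADL and 0.962 for ACADVL, and the sign of all 3 turned when single arrays were left out.

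HADHA and HADHB encode the alpha and beta subunits of the mitochondrial trifunctional protein, which carries out the last 3 steps of a round for long chains. In human the genes lie head to head and share a promoter region, and in the porcine gene table used here they are neighbours with 1 uncharacterised locus between them. HADHA stood at 9.66, 9.77, 9.91 and 9.65 on corticosteroid arrays 1 to 4, and at 9.93, 8.85, 9.72 and 9.42 on control arrays 1 to 4. The corticosteroid arrays lay close together, and control replicate 2 was the low one. The difference was 0.27 (SE 0.24, 95% interval -0.27 to 0.80, limma adjusted p = 0.699) and 0.06 without control replicate 2.

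HADHB had the opposite sign. Its lead probe set, in a row that did not move, stood at 11.07, 10.42, 11.31 and 10.41 on corticosteroid arrays 1 to 4, and at 11.55, 10.66, 11.32 and 11.60 on control arrays 1 to 4. Of the corticosteroid arrays 2 lay below every control array. The means were 10.80 ± 0.46 with corticosteroid and 11.28 ± 0.43 in controls (SD, n = 4 each), a difference of -0.48 (SE 0.28, 95% interval -1.10 to 0.14, limma adjusted p = 0.578). The other 2 probe sets gave -0.40 (SE 0.28) and -0.23 (SE 0.31), so all 3 had lower means. Without control replicate 2 the lead difference was -0.69.

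**Figure D3:**
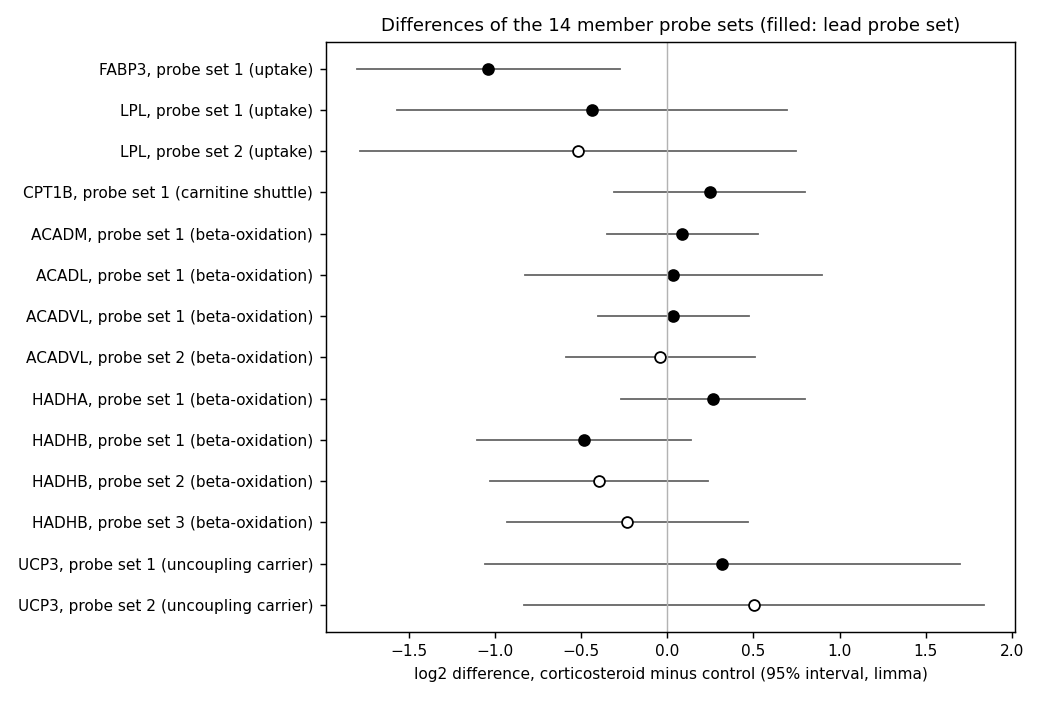
Log2 difference, corticosteroid minus control, of the 14 member probe sets with the 95% interval from limma (n = 4 each), ordered by step, with lead probe sets filled. The interval of FABP3 (-1.80 to -0.28) lies below 0, and those of the other 13 probe sets include 0.

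Because both subunits are measured on the same array, their log2 difference on each array was also compared, a choice made after their values were seen. HADHB minus HADHA was 1.40, 0.66, 1.40 and 0.76 on corticosteroid arrays 1 to 4, and 1.62, 1.81, 1.60 and 2.18 on control arrays 1 to 4. Every corticosteroid array lay below every control array. The mean was 1.06 ± 0.40 with corticosteroid and 1.80 ± 0.27 in controls (SD, n = 4 each), a difference of -0.75 that ran from -0.86 to -0.62 when single arrays were left out. The groups did not overlap with the second HADHB probe set either (-0.66), and did with the third (-0.50). The HADHA row is one that the re-assignment moved.

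Among the 36 pairs of member genes, 3 pairs (8.33%) did not overlap between the groups, against 4.96% of all pairs of tested genes. Besides the subunit pair these were CPT1B with HADHB and FABP3 with HADHA. CPT1B minus HADHB, both in rows that did not move, was -2.11, -2.01, -1.98 and -1.61 on corticosteroid arrays 1 to 4, and -2.51, -2.40, -2.77 and -2.94 on control arrays 1 to 4. The mean was -1.93 ± 0.22 with corticosteroid and -2.66 ± 0.25 in controls (SD, n = 4 each), a difference of 0.73 with a range of 0.62 to 0.81 when single arrays were left out. The groups did overlap with the third HADHB probe set. There CPT1B stood at 9.33 against 10.70 on corticosteroid replicate 3, and at 8.26 against 9.61 on control replicate 2. FABP3 minus HADHA averaged -1.08 ± 0.52 with corticosteroid and 0.22 ± 1.02 in controls (SD, n = 4 each). That difference was -1.31, and -0.81 without control replicate 2. Such a value describes an unequal difference of the 2 transcripts on these arrays and does not say which of them differed. The 3 pairs share HADHA or HADHB, so they are not independent of each other. No p is given, because the pairs were picked by their values.

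**Figure D4:**
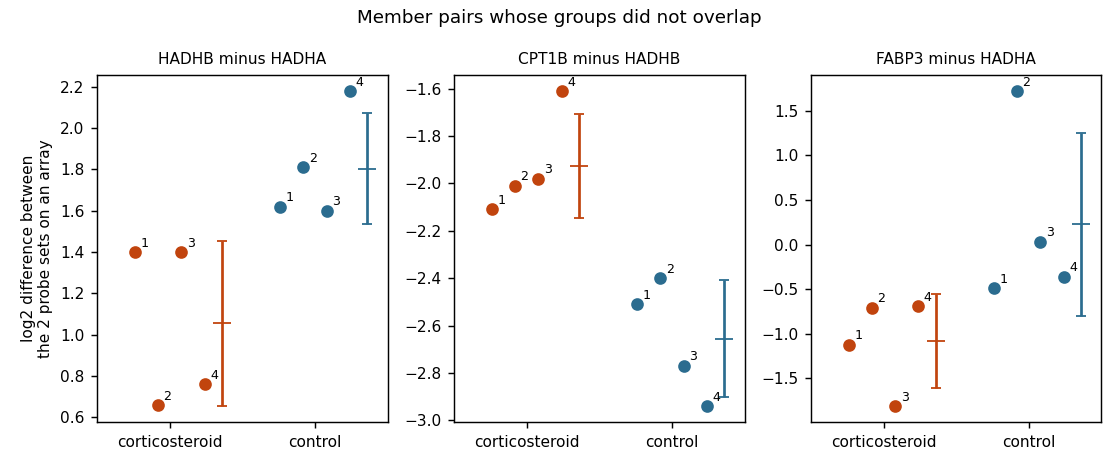
Log2 difference between the lead probe sets of 2 member genes on each array, corticosteroid arrays left and control arrays right, with replicate numbers and the group mean ± SD (n = 4 each). The 3 pairs shown are those of 36 whose groups did not overlap, and HADHB minus HADHA was 0.66 to 1.40 on corticosteroid arrays and 1.60 to 2.18 on control arrays.

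UCP3 is a carrier of the inner mitochondrial membrane in skeletal muscle whose transcript is known to follow fatty acid supply. It was the most variable member. The lead probe set stood at 8.78, 8.74, 9.23 and 7.53 log2 units on corticosteroid arrays 1 to 4, and at 9.00, 6.64, 7.78 and 9.59 on control arrays 1 to 4. The control arrays spanned nearly 3 log2 units and enclosed the corticosteroid arrays. Its SD within groups was 1.06 log2 units, above that of 98.4% of the probe sets tested, followed by LPL with 0.87 (96.3%), ACADL with 0.64 (89.8%) and FABP3 with 0.55 (84.6%). ACADVL (0.26, 36.9%) and ACADM (0.28, 42.7%) were the steadiest members. The UCP3 difference was 0.32 (SE 0.61, 95% interval -1.06 to 1.70, limma adjusted p = 0.873), and 0.50 (SE 0.60) for the second probe set. Without control replicate 2 it was -0.22. Both UCP3 rows are ones that the re-assignment moved.

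The genes whose levels followed those of the members most closely over the 8 arrays were sought among the genes tested. The mean of the 5 beta-oxidation members was matched best by TRIM29 (Pearson r = 0.937), GDPD5 (0.932), MYLIP (0.909), CLSTN1 (0.874) and PIGQ (0.868). UCP3 was matched best by BAP1 (r = 0.937), TEAD1 (0.928), DICER1 (0.924), YBX3 (0.924) and XPC (0.918). These are the highest values among all genes tested over 8 arrays that share their processing, and they are given as a description.

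Beyond the members, 6 lists of other genes of fatty acid handling held 106 genes, of which 80 had a probe set and 74 were tested. Of these 47 had higher and 27 lower means with corticosteroid, with a median log2 difference of 0.12. At an unadjusted p under 0.05 in limma there were 7 (9.46%, against 9.17% of all genes), 6 higher and 1 lower, and 0 of 74 had an adjusted p under 0.05 (smallest 0.482).

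The other tested genes of the carnitine shuttle lay on the same side as CPT1B. All 6 tested had higher means, where 54.0% of all genes did. Their median log2 difference was 0.32 and 0.25 without control replicate 2, and 0 of them had an unadjusted p under 0.05 in limma. ACACA, the other measured gene of the list, lay below the filter and differed by -0.03. These genes are named here after their values were seen. CPT1A, the liver form of the first enzyme, differed by 0.49 (SE 0.28), and CRAT, the carnitine acetyltransferase of the matrix, by 0.44 (SE 0.25). SLC22A5, the plasma membrane carnitine transporter, differed by 0.35 (SE 0.19) and CPT2, the inner membrane enzyme, by 0.28 (SE 0.15). SLC25A20, the carnitine-acylcarnitine carrier, differed by 0.24 (SE 0.26), and TMLHE, an enzyme of carnitine synthesis, by 0.17 (SE 0.17). The mean of the whole list of 7 measured genes, centred over the arrays, was 0.11 to 0.16 on corticosteroid arrays and -0.28 to 0.06 on control arrays. How often lists of this size separate in this way was not tested.

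The list of other mitochondrial beta-oxidation genes had 13 higher and 5 lower means of 18 tested, a median log2 difference of 0.19. It was drawn broadly and also holds genes, such as NUDT7 and ACAD8, that are not enzymes of this route. Of the 18 genes 3 had an unadjusted p under 0.05 in limma, all higher, where 9.17% of all genes did and 5.27% were higher. ACAD11, an acyl-CoA dehydrogenase, stood at 7.17, 7.26, 7.85 and 7.44 on corticosteroid arrays 1 to 4, all above the control arrays at 7.13, 6.33, 6.64 and 7.10. The groups of ACAD11 did not overlap, which held for 1 of the 18 genes and for 5.42% of all genes. Its difference was 0.63 (SE 0.23, limma adjusted p = 0.482). DECR1, the dienoyl-CoA reductase needed for unsaturated fatty acids, differed by 0.62 (SE 0.24), and HSD17B10, a hydroxyacyl-CoA dehydrogenase of mitochondria, by 0.56 (SE 0.22). Without control replicate 2 the differences of the 3 genes were 0.47, 0.69 and 0.45.

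Peroxisomal beta-oxidation genes had 5 higher and 4 lower means of 9 tested (median 0.10). The racemase AMACR, which prepares branched fatty acids, differed by 0.48 (SE 0.21, limma adjusted p = 0.524), and by 0.31 without control replicate 3. Without control replicate 2 the median of the list was near 0, with 4 of 9 higher. Other uptake and activation genes had 7 higher and 5 lower means of 12 tested (median 0.05), and the regulators 8 higher and 8 lower of 16 (median -0.02, and -0.14 without control replicate 2). Neither list held a gene at an unadjusted p under 0.05.

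Lipid store and release genes had 8 higher and 5 lower means of 13 tested (median 0.07) and the widest range, from -1.73 to 1.20. PNPLA2, the adipose triglyceride lipase that begins the breakdown of stored fat, stood at 10.80, 11.18, 11.63 and 11.19 on corticosteroid arrays 1 to 4, and at 11.04, 8.87, 10.50 and 10.24 on control arrays 1 to 4. Its difference was 1.04 (SE 0.41, limma adjusted p = 0.483), and 0.61 without control replicate 2, the low array. LIPE, hormone-sensitive lipase, differed by 1.20 (SE 0.51, limma adjusted p = 0.512), and by 0.85 without that array. LIPE is also among the adipocyte markers. PLIN2, a coat protein of lipid droplets, stood at 7.64, 7.42, 7.26 and 5.91 on corticosteroid arrays 1 to 4, and at 7.15, 9.91, 10.47 and 7.60 on control arrays 1 to 4. Control replicates 2 and 3 lay more than 2 log2 units above every corticosteroid array, and control replicates 1 and 4 within their range. The difference was -1.73 (SE 0.74, limma adjusted p = 0.522), and -1.35 without control replicate 2.

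**Figure D5:**
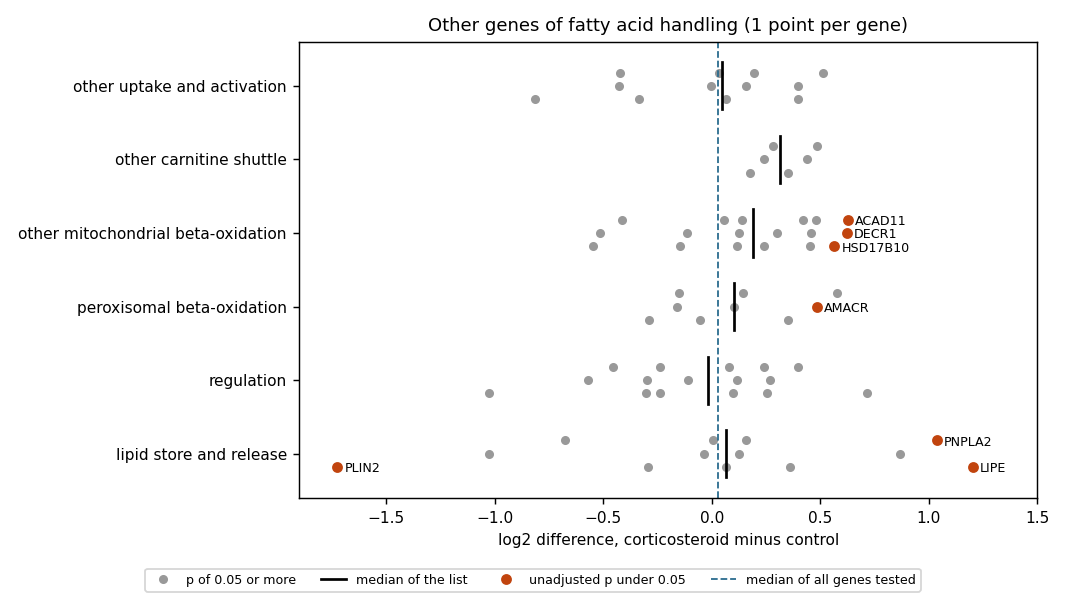
Log2 difference, corticosteroid minus control, of 74 other genes of fatty acid handling in 6 lists, 1 point per gene (lead probe set), with the median of each list and of all genes tested (0.03). Orange points are the 7 genes with an unadjusted p under 0.05 in limma, and all 6 tested genes of the other carnitine shuttle list lie above 0.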

How the data were processed

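The values are the authors' deposited log2 expression levels per probe set of an Affymetrix porcine array. MAS5 is the only tool named, per the submitters' processing notes, and scaling between arrays is not given in those notes or labels. Corticosteroid values were re-assigned to probe IDs sorted as text with full stops ignored (0 ties). This order was found from the values: over the 9389 moved probe sets the group means correlated with r = 0.0997 as deposited and 0.989 after re-assignment.

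Groups came from the sample titles. The comparison used limma 3.58.1 with R 4.3.3 (lmFit and eBayes, with an intensity trend, Benjamini-Hochberg adjustment over 14361 probe sets, threshold 0.05). These were the probe sets with a mean log2 level above the 40th percentile (5.27), with 64 reporter probe sets left out. The fit was checked on simulated data with independent normal errors and 200 changed probe sets. These data held no deviating array and no error of row order, so the check does not cover either. Python 3.11.15, pandas 2.3.3, numpy 2.4.6 and scipy 1.17.1 were used for tables and exact tests. Precision is limited by the 8 arrays, with a median standard error of 0.219 log2 units.

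Named genes were all members and, in each related list, up to 4 genes of smallest unadjusted p under 0.05. The other carnitine shuttle genes, PDK4, NUDT7, ACAD8 and the skeletal muscle markers other than CKM fall outside this rule. They were named after their values were seen, and the markers named stand beside FABP3 and LPL. Members and lists were chosen with earlier results of these data known. The alternatives were a replicate block, other scalings, filters, an offset of 16, other variance models, averaged probe sets, the rows as deposited and fewer arrays.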

Additional observations from a re-analysis of the deposited data

Results flagged for a closer look

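In 42 groups of 4 arrays of the members and the named related genes, 1 held an array far from the other 3 by Dixon's ratio at its 95% critical value, where chance gives about 1 in 20. The second probe set of HADHB stood at 10.34 log2 units on control replicate 2, against 11.26 to 11.31 on the other control arrays. PDK4, the kinase that restrains pyruvate oxidation when fatty acids are burned, was examined after its values were seen, so its far array is a description and is not counted above. It stood at 12.59, 12.09, 12.30 and 7.27 on corticosteroid arrays 1 to 4, and at 13.11, 12.03, 11.30 and 11.92 on control arrays 1 to 4. The far value is that of corticosteroid replicate 4 (7.27). The log2 difference of PDK4 was -1.03 (SE 1.06, limma adjusted p = 0.738) and 0.24 without that array. The same array had the lowest levels of the lead LPL and HADHB probe sets, for HADHB at 10.41 against 10.42 on corticosteroid replicate 2. The other LPL probe set was lowest on corticosteroid replicate 3 (7.81, against 8.29 on replicate 4). The other HADHB probe sets were lowest on corticosteroid replicate 2 (10.27 and 9.47, against 10.30 and 9.81 on replicate 4).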

How the results depend on the processing

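Over 19 alternatives FABP3 and HADHB stayed lower, and CPT1B and HADHA higher, with corticosteroid. The replicate block, the filters and the fit without an intensity trend leave a log2 difference unchanged, so they could not turn its sign. The rows as deposited likewise keep the values of FABP3, CPT1B and the lead HADHB probe set. For HADHA they hold corticosteroid values of another probe set. With re-assigned rows no member reached an adjusted p under 0.05 in limma (smallest 0.37). With the rows as deposited 5454 probe sets and 4 member genes passed (6101 probe sets and 4 members at an unadjusted p under 0.05). Of these, ACADM (-6.97), UCP3 (-4.87) and HADHA (2.04) lie in moved rows, and FABP3 kept its difference of -1.04 at a limma adjusted p of 0.0329. The FABP3 values are the same in either order. Its adjusted p changed only through the other rows in the fit and the adjustment, so it is no added evidence on FABP3. HSD17B10 was -5.10 with the rows as deposited. The pairs were -2.52 for HADHB minus HADHA and -3.08 for FABP3 minus HADHA. The number at an unadjusted p under 0.05 was 2160 with no filter. Leaving out single arrays it ran from 894 to 1777 probe sets (894 without corticosteroid replicate 4, 903 without control replicate 3), and the number passing from 0 to 1. Members at an unadjusted p under 0.05 were 1 to 2 without single arrays, 2 with array weights and 2 without control array 2 and corticosteroid array 4. Without single arrays, ACADM ran from -0.0593 to 0.16, ACADL from -0.22 to 0.25, ACADVL from -0.11 to 0.14, UCP3 from -0.22 to 0.77 and PDK4 from -1.54 to 0.24. ACADVL was -0.0828 with array weights, -0.0034 as the mean of its probe sets and -0.16 without control array 2 and corticosteroid array 4, where LPL was 0.12 and PDK4 0.22. Among the fits without single arrays, PDK4 turned its sign only without corticosteroid replicate 4, and UCP3 only without control replicate 2. The cause of these reversals was not tested. The replicate block called 0 probe sets, with 1332 at an unadjusted p under 0.05 and 1 member, and changed no call. Deviations of same-numbered arrays from their group means correlated at -0.246, 0.109, 0.105 and 0.053. Of the 4 corticosteroid arrays, 2 correlated best with the control array of their own number. These values cannot decide whether the numbers pair the samples. All 14 member probe sets lay above the filter on low levels.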
